A study of Mus musculus with 30 samples.

Results

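The 8 genes described here are those whose messages are known from other work to respond when a skeletal muscle loses its nerve supply: HDAC4, HDAC9, DACH2, RUNX1, GADD45A, CDKN1A, NCAM1 and TNFRSF12A. They were taken by symbol from the deposited table of 21073 genes, and all 8 were found. RNA-Seq had been run on the extensor digitorum longus (EDL), a fast muscle of the lower hind limb, of 30 wild-type female SJL mice, with 5 mice in each of 6 groups. Mice were left unimmunized (Ctrl), were immunized with ovalbumin in complete Freund's adjuvant (OVA), or had experimental autoimmune encephalomyelitis induced with a peptide of the myelin proteolipid protein in the same adjuvant and without pertussis toxin (EAE). Muscles were taken on day 14, the peak of disease, and from other mice on day 40, in chronic remission. No nerve was cut in these mice, the labels give neither an age nor a clinical score for a mouse, and the state of the nerve endings was not measured here. The name denervation signalling therefore stands for what the genes are known for, and not for a state found in these muscles.

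In an innervated muscle fibre, electrical activity keeps the synaptic genes silent everywhere except under the nerve terminal. When activity stops, the class IIa histone deacetylase HDAC4 builds up, holds back the MEF2 transcription factors and shuts off DACH2, a repressor of the myogenin gene. HDAC9, another deacetylase of this class, represses synaptic genes in active fibres and is known to fall after denervation. Myogenin then turns on acetylcholine receptor subunits, the kinase MuSK and the atrophy ubiquitin ligases. Further down the same response stand RUNX1, a transcription factor that preserves denervated fibres, GADD45A, a nuclear stress protein that promotes fibre atrophy, and CDKN1A, the cyclin-dependent kinase inhibitor p21. NCAM1, the neural cell adhesion molecule, spreads over the surface of denervated fibres, and TNFRSF12A (Fn14) is the receptor for the cytokine TWEAK.

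Levels are given as RPKM, reads per kilobase of exon scaled to the size of the library, a scale on which genes may be compared with each other. Reads on genes were estimated at 17.6M to 30.7M per mouse, with a median of 21.0M, and counting error is therefore small for all but the lowest gene, DACH2. Of the members other than DACH2, the fewest reads behind a value were about 170, for HDAC9 in 1 EAE mouse of day 14. Differences between groups were tested with limma on log2(RPKM + 0.1) for genes above 3 RPKM on average in at least 1 of both groups compared. A gene was called when it changed by more than 1.5-fold with p under 0.05 after Benjamini-Hochberg adjustment over all genes tested. No gene that overlaps a member on either strand was itself listed in the table.

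Regulatory sequence just upstream of the genes is shown because 6 of the members moved together on day 14, as given below. Each window holds the 250 bases before the annotated RefSeq start, in GRCm38 (mm10) and read 5′ to 3′ on the strand of the gene. The HDAC4 start is that of a transcript that begins inside the annotated span of the gene. Capitals of 6 letters mark the E-box CANNTG, a loose pattern that takes in the sites of myogenin and its relatives among others. Capitals of 10 letters mark a p53 half-site.
GADD45A, chr6:67037408-67037657, minus strand: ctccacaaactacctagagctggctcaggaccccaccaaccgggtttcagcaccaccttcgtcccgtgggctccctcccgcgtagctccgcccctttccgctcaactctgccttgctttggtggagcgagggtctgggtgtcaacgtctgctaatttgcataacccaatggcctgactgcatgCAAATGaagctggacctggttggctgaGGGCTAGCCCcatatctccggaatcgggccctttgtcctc
CDKN1A, chr17:29090729-29090978, plus strand: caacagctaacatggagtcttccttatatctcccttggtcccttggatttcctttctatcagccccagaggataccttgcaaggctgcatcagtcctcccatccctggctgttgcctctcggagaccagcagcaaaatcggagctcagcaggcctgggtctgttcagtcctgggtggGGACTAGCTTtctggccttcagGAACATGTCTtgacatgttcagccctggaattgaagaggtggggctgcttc
RUNX1, chr16:92826075-92826324, minus strand: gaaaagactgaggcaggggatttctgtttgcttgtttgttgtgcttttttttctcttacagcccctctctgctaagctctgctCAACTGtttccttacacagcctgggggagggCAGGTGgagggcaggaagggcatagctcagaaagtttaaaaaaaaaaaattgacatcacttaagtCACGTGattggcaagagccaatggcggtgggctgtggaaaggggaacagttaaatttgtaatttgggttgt
TNFRSF12A, chr17:23677450-23677699, minus strand: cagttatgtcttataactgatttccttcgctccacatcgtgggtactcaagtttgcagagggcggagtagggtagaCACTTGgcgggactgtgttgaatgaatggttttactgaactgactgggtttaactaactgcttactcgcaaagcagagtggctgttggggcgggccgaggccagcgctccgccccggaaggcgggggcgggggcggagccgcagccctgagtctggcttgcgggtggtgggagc
HDAC4, chr1:92180342-92180591, minus strand: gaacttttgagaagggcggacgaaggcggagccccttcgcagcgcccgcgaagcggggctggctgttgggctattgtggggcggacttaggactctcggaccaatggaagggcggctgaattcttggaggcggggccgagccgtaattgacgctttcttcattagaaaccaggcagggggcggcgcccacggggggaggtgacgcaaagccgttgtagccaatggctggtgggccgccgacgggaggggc

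Both strands were searched. The window shown of RUNX1 held 3 E-boxes, those of GADD45A and TNFRSF12A held 1 each, and those of CDKN1A and HDAC4 held none. RUNX1 and CDKN1A each had another window on record that is not shown. That of RUNX1 held neither an E-box nor a p53 half-site. That of CDKN1A held an E-box, at -187 to -182 from its start, and no p53 half-site. An E-box is a common match, found in 66.2% of the 32851 windows of this length in the same reference. The p53 half-site was present in 7.13% of all windows, and the CDKN1A window shown held 2 of them, at -73 to -64 and at -51 to -42 from the start. GADD45A held 1, at -40 to -31, and so did a window of HDAC9 that is not shown, at -185 to -176. Of the 11 windows on record for 7 of the members (NCAM1 had no entry), 7 held an E-box and 3 a p53 half-site. In the same 11 windows the AP-1 site TGANTCA occurred in 1 and the RUNX site TGTGGT in 1, against 6.75% and 14% of all windows, and these were windows of HDAC9 and DACH2. The E-box of the form CAGCTG, which is counted under CANNTG too, occurred in 2 of the 11 (13% of all windows) and TATAAA in 2 (12.4%). No window of a member held a MEF2 site (2.92% of all windows) or the cyclic AMP element TGACGTCA (1.55%). These letters describe the windows and were not compared with binding data.

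On day 14 the levels of HDAC4, RUNX1, GADD45A, CDKN1A, NCAM1 and TNFRSF12A were about 4 to 8 times higher in EAE mice than in unimmunized mice, whereas HDAC9 and DACH2 were not higher on average. All 6 were called higher by limma in EAE mice against both controls, with log2 fold changes from 2.07 to 2.94 against Ctrl and from 1.99 to 3.00 against OVA. For comparison, 14.6% of all 8771 tested genes were called higher and 11.8% lower in EAE against Ctrl, and 11% of 8674 were called higher and 9.28% lower in EAE against OVA. Both comparisons use the same 5 EAE mice and are not independent of each other. RUNX1 and NCAM1 passed the expression threshold only through the EAE mice of day 14, as did HDAC4 against Ctrl, so that their being tested already required a difference. When every gene with a read was tested instead, the adjusted p values against Ctrl lay between 3.94e-06 for NCAM1 and 8.31e-04 for TNFRSF12A. In whole muscle, more RNA per fibre and more cells of a kind that makes the RNA cannot be told apart.

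**Figure D1:**
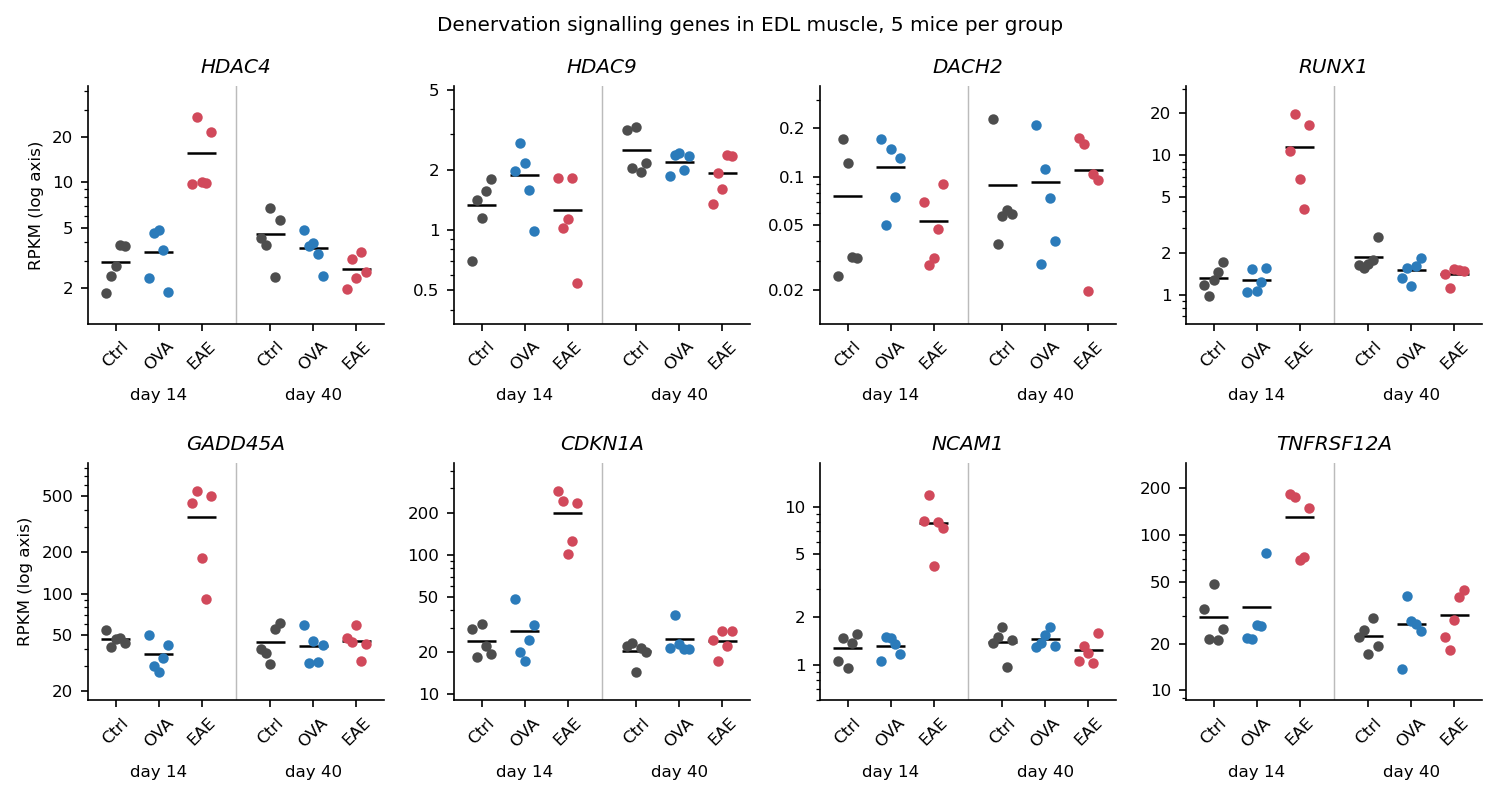
RPKM (log axis) of the 8 genes in each mouse, by group and day; points are mice and lines are group means. In 6 panels the EAE mice of day 14 lie above the other groups, with 1 OVA mouse at 76.2 RPKM of TNFRSF12A among them, and HDAC9 and DACH2 show no such shift.

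HDAC4 (Entrez gene 208727, chromosome 1 from 91928779 to 92195702, minus strand) is the class IIa deacetylase that stands at the top of this response. Its levels in the 5 EAE mice of day 14 were 9.70, 27.0, 10.1, 9.92 and 21.3 RPKM. The unimmunized mice had 1.85, 2.40, 2.81, 3.86 and 3.81 RPKM and the OVA mice 2.33, 4.63, 4.82, 3.57 and 1.87 RPKM. Every EAE mouse was above every control mouse, and within the EAE group 3 mice lay close together near 10 RPKM and the other two far above them. The log2 fold change was 2.27 ± 0.33 (SE) against Ctrl (limma adjusted p = 6.70e-05) and 2.09 ± 0.33 against OVA (adjusted p = 1.53e-04).

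RUNX1 (Entrez gene 12394, chromosome 16 from 92601466 to 92826074, minus strand) was at 10.8, 19.6, 6.74, 4.08 and 16.4 RPKM in the EAE mice of day 14. In unimmunized mice it was between 0.984 and 1.70 RPKM and in OVA mice between 1.05 and 1.54 RPKM. The lowest EAE mouse was thus above the highest control, although the EAE mice themselves spanned 4.80-fold. The log2 fold change was 2.84 ± 0.33 against Ctrl (limma adjusted p = 9.69e-06) and 2.88 ± 0.33 against OVA (adjusted p = 1.10e-05).

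NCAM1 (Entrez gene 17967, chromosome 9 from 49502129 to 49799393, minus strand), which is held at the synapse in innervated fibres, was at 8.17, 11.9, 4.19, 7.95 and 7.36 RPKM in EAE mice. Unimmunized mice ranged from 0.948 to 1.56 RPKM and OVA mice from 1.05 to 1.49 RPKM, with no overlap with EAE mice. Among the 6 genes called, NCAM1 had the smallest spread in EAE mice, with a coefficient of variation of 34.5%, and the smallest standard error, at a log2 fold change of 2.49 ± 0.22 against Ctrl (limma adjusted p = 1.37e-06). Against OVA it was 2.45 ± 0.22 (adjusted p = 1.77e-06).

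GADD45A (Entrez gene 13197, chromosome 6 from 67035096 to 67037407, minus strand) was the most abundant of the 8 genes. The EAE mice of day 14 had 446, 549, 180, 90.7 and 502 RPKM. Unimmunized mice had 54.9, 41.0, 46.9, 47.9 and 44.4 RPKM and OVA mice had 50.4, 29.9, 27.2, 34.5 and 42.3 RPKM. The groups did not overlap, but the spread in EAE mice was 6.05-fold against 1.34-fold in unimmunized mice, and the EAE mouse with the lowest level was only 1.93 times the unimmunized mean. The log2 fold change was 2.62 ± 0.38 against Ctrl (limma adjusted p = 7.68e-05) and 3.00 ± 0.38 against OVA (adjusted p = 2.81e-05).

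CDKN1A (Entrez gene 12575, chromosome 17 from 29090979 to 29100722, plus strand) had the largest log2 fold change of the 8 against Ctrl. Its levels in EAE mice were 287, 243, 102, 125 and 234 RPKM, in unimmunized mice 29.6, 18.5, 31.9, 22.3 and 19.5 RPKM, and in OVA mice 48.6, 20.1, 17.5, 24.7 and 31.5 RPKM. EAE mice were above all others, by a log2 fold change of 2.94 ± 0.30 against Ctrl (limma adjusted p = 4.38e-06) and 2.78 ± 0.30 against OVA (adjusted p = 8.47e-06).

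TNFRSF12A (Entrez gene 27279, chromosome 17 from 23675445 to 23677449, minus strand) was at 183, 176, 69.4, 71.9 and 149 RPKM in EAE mice. The unimmunized mice had 33.4, 21.4, 48.7, 21.0 and 24.9 RPKM, and the OVA mice 21.8, 21.3, 26.3, 25.8 and 76.2 RPKM. One OVA mouse therefore exceeded both low EAE mice, and only 3 of the 5 EAE mice were above all OVA mice. The log2 fold change was 2.07 ± 0.37 against Ctrl (limma adjusted p = 4.00e-04) and 1.99 ± 0.37 against OVA (adjusted p = 6.49e-04), and without that OVA mouse the latter was 2.32 (adjusted p = 8.1e-05).

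Counted over the group ranges, all 5 EAE mice of day 14 were above all unimmunized mice for 6 of the 6 members tested, and above all OVA mice for 5 of 6. The same held for 21.2% of all tested genes against Ctrl and for 18% against OVA. HDAC9 and DACH2 were not tested, and their ranges in EAE mice overlapped those of both controls. RUNX1 and NCAM1, and HDAC4 against Ctrl, were tested only through their level in these EAE mice, so that the filter partly fixes the count. Among all tested genes ranked by log2 fold change against Ctrl, CDKN1A was at place 27, RUNX1 at 31, GADD45A at 36, NCAM1 at 39, HDAC4 at 51 and TNFRSF12A at 69.

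**Figure D2:**
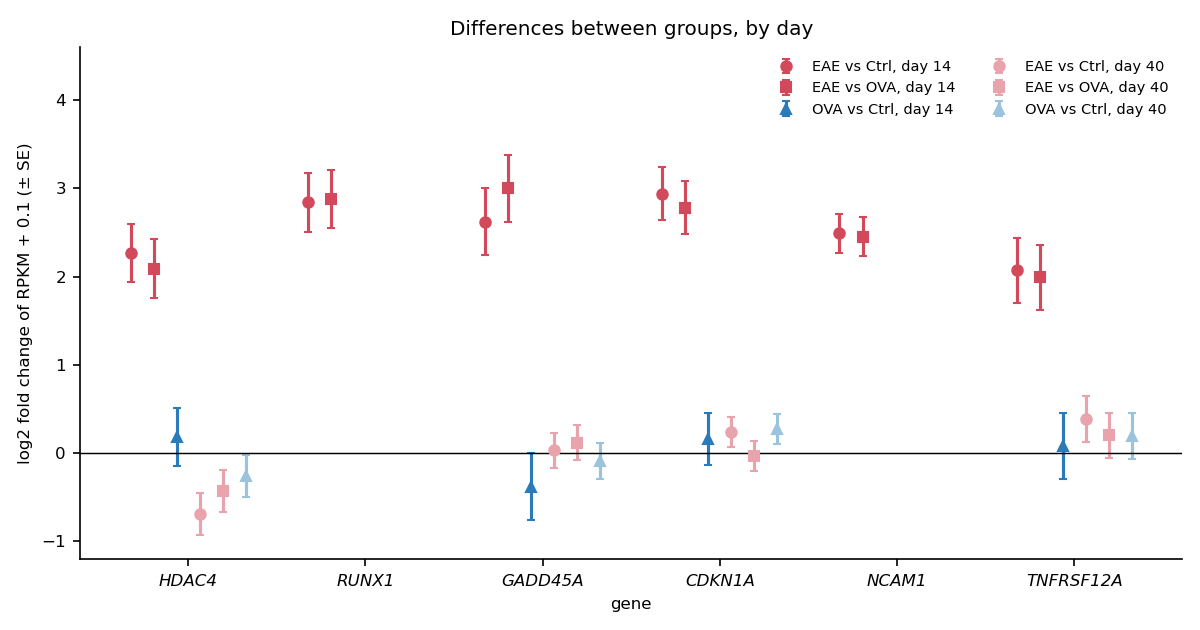
Log2 fold changes of RPKM + 0.1 with standard errors from limma, for each gene tested, in 3 comparisons on day 14 and 3 on day 40. The EAE comparisons of day 14 lie between 1.99 and 3.00 and those without EAE mice or of day 40 between -0.69 and 0.39; RUNX1 and NCAM1 were tested only in EAE comparisons of day 14.

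HDAC9 (Entrez gene 79221, chromosome 12 from 34047580 to 34917095, minus strand) belongs to the same class as HDAC4, and its level in EAE mice of day 14 overlapped that in both controls. In EAE mice of day 14 it was at 1.81, 1.02, 1.14, 1.81 and 0.544 RPKM, in unimmunized mice at 0.703, 1.41, 1.15, 1.57 and 1.80 RPKM, and in OVA mice at 1.98, 2.73, 2.17, 1.58 and 0.992 RPKM. All 3 ranges overlapped, and the two-sided exact permutation test gave p = 0.762 against Ctrl and p = 0.167 against OVA (5 mice a group, smallest possible p 0.00794, unadjusted). With a mean under 3 RPKM in every group, HDAC9 was outside the limma test. Unimmunized mice had 0.703 to 1.80 RPKM on day 14 and 1.94 to 3.27 RPKM on day 40, while the ranges of both days overlapped in OVA mice (0.992 to 2.73 and 1.87 to 2.42 RPKM) and in EAE mice (0.544 to 1.81 and 1.35 to 2.37 RPKM). Among the 7 members above 1 RPKM in an unimmunized group, HDAC9 was the 1 whose ranges on both days were separate, against 11.1% of 11278 such genes, and day and any difference in handling between days cannot be told apart.

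DACH2 (Entrez gene 93837, chromosome X from 113297496 to 113836386, plus strand), the repressor between HDAC4 and myogenin, was close to the limit of detection in every mouse. Its values were whole multiples of 1 read, within 0.15 of a read in all 30 mice, and came to between 3 and 33 reads, with a median of 10. The EAE mice of day 14 had 0.0699, 0.0286, 0.0314, 0.0474 and 0.0907 RPKM. The unimmunized mice had 0.0244 to 0.173 RPKM and the OVA mice 0.0503 to 0.172 RPKM, so that the 3 ranges overlapped. A floor was set at 3 reads, which was 0.0135 to 0.0235 RPKM depending on the mouse, and 1 of the 30 mice was at it. With so few reads, no fold change is given. The exact permutation test gave p = 0.595 against Ctrl and p = 0.0476 against OVA, the latter unadjusted and with EAE mice lower on average. The highest value, 0.229 RPKM or 33 reads, came from an unimmunized mouse of day 40.

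No difference of the members between OVA and unimmunized mice was detected on day 14. By limma 0 of the 4 tested members were called, where 0.142% of 8471 genes were called in either direction. None of the 4 had an unadjusted limma p below 0.05, which 821 of the 8471 genes had. This fit took the spread of each gene from all 3 groups of day 14, including the EAE mice. GADD45A, the most variable member in EAE mice, had an exact permutation p of 0.0873 between OVA and Ctrl. When only the mice of both groups were fitted, 0 members were called too. The log2 fold changes of OVA against Ctrl were 0.18 ± 0.33 for HDAC4, -0.38 ± 0.38 for GADD45A, 0.16 ± 0.30 for CDKN1A and 0.08 ± 0.37 for TNFRSF12A, with limma adjusted p values from 0.765 to 0.952. RUNX1 and NCAM1, under the expression threshold in both groups, had means of 1.28 and 1.3 RPKM in OVA mice and 1.32 and 1.28 RPKM in unimmunized mice (exact permutation p = 0.833 and p = 0.825).

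On day 40, in remission, limma called 0 of the 4 members tested in each comparison. In EAE against Ctrl 1 of the 4, HDAC4, had an unadjusted limma p below 0.05, as did 2423 of all 8691 genes. None of the 4 did in EAE against OVA (1500 of 8598 genes) or in OVA against Ctrl (272 of 8706). GADD45A was at 47.8, 44.6, 59.2, 32.6 and 43.0 RPKM in EAE mice, within 30.9 to 61.7 RPKM in unimmunized mice. CDKN1A ranged from 17.4 to 28.3 RPKM in EAE mice and from 14.5 to 23.5 RPKM in unimmunized mice. TNFRSF12A ranged from 18.2 to 44.5 RPKM in EAE mice and from 17.2 to 29.3 RPKM in unimmunized mice. None of these groups separated: the log2 fold changes of EAE against Ctrl were 0.03 ± 0.20 for GADD45A, 0.24 ± 0.17 for CDKN1A and 0.39 ± 0.26 for TNFRSF12A (limma adjusted p = 0.926, 0.353 and 0.326).

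HDAC4 was lower on average in EAE mice than in unimmunized mice of day 40 and was not called. The EAE mice had 1.98, 3.10, 2.31, 3.46 and 2.55 RPKM, and the unimmunized mice 4.28, 3.84, 6.76, 2.36 and 5.59 RPKM. The ranges overlapped through a single unimmunized mouse at 2.36 RPKM. The log2 fold change was -0.69 ± 0.24 (limma adjusted p = 0.0947), and without that mouse it was -0.90 (adjusted p = 0.0149). Over the other alternatives tried the adjusted p ran up to 0.359, with all 30 mice in a single fit. That fit includes the EAE mice of day 14, which had the widest spread of HDAC4 (coefficient of variation 51.6%). In the OVA mice of day 40 HDAC4 was at 4.80, 3.79, 3.99, 3.36 and 2.39 RPKM, and EAE against OVA gave -0.43 ± 0.24 (adjusted p = 0.358).

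RUNX1, under the expression threshold on day 40, was lower in all EAE than in all unimmunized mice. The EAE mice had 1.40, 1.12, 1.52, 1.49 and 1.48 RPKM and the unimmunized mice 1.63, 1.56, 1.65, 1.78 and 2.60 RPKM. These ranges did not overlap (exact permutation p = 0.00794, the smallest the design allows, unadjusted), but the limma fit over all genes with a read gave an adjusted p of 0.213. Of the 7 members above 1 RPKM, RUNX1 was the 1 with separate ranges in this comparison, as were 5.22% of 11205 genes. Against the OVA mice of day 40, with 1.31, 1.55, 1.15, 1.6 and 1.84 RPKM, the ranges overlapped (exact permutation p = 0.587).

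Across all genes on day 40, 0.46% of 8691 were called in EAE against Ctrl, 0.209% of 8598 in EAE against OVA and 0% of 8706 in OVA against Ctrl (272 at an unadjusted limma p below 0.05), and no member was among them. NCAM1 was at 1.24 ± 0.230 RPKM (SD, n = 5) in EAE mice and 1.40 ± 0.276 in unimmunized mice of day 40. DACH2 ranged from 0.0196 to 0.174 RPKM in EAE mice and from 0.0385 to 0.229 RPKM in unimmunized mice, and HDAC9 from 1.35 to 2.37 and from 1.94 to 3.27 RPKM.

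The change of the EAE difference from day 14 to day 40 was tested directly in a fit of all 30 mice. The difference from Ctrl was lower on day 40 for HDAC4 by -2.96 ± 0.43 on the log2 scale, for RUNX1 by -3.20 ± 0.38, for GADD45A by -2.59 ± 0.46, for CDKN1A by -2.70 ± 0.37, for NCAM1 by -2.64 ± 0.28 and for TNFRSF12A by -1.67 ± 0.48 (limma adjusted p from 6.60e-08 to 0.00604). The difference from OVA changed by -1.79 for TNFRSF12A to -2.95 for RUNX1 (limma adjusted p from 6.97e-08 to 0.00538). Of all genes, 32.1% of 9013 and 24% of 8935 passed that test in the same direction against Ctrl and against OVA. RUNX1 and NCAM1 passed the expression threshold only through the EAE mice of day 14, so that their being tested already required such a difference. With every gene with a read tested, their limma adjusted p values for the change against Ctrl were 9.64e-07 and 1.49e-07.

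When the 6 groups were ordered by mean level, EAE on day 14 came first for the 6 genes called and last for HDAC9 and DACH2. The step from EAE on day 14 to the next group had an exact permutation p of 0.00794 and separate ranges for HDAC4, RUNX1, GADD45A, CDKN1A and NCAM1, and a p of 0.0238 with overlapping ranges for TNFRSF12A. All other 34 of the 40 neighbouring pairs overlapped, and none had p below 0.05 (unadjusted). Groups farther apart in the order were compared only where given above. For HDAC4 that order ran from 4.57 RPKM in Ctrl on day 40 to 2.68 RPKM in EAE on day 40, in steps with p from 0.405 to 0.667.

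Within the EAE group of day 14 the coefficient of variation of the 6 genes ran from 34.5% for NCAM1 to 57.9% for GADD45A, and many of the same mice were high or low from gene to gene. The second mouse was the highest for HDAC4, RUNX1, GADD45A and NCAM1 and among the highest pair for all 6 genes. The third and the fourth mouse were never in the highest pair, and between them held the lowest value for 5 of the 6. HDAC4 made an exception for the first mouse, which was the lowest for HDAC4 (3.29 times the unimmunized mean) and the highest for CDKN1A (11.8 times) and TNFRSF12A (6.13 times). Over all genes, the mice numbered 1 of day 14 deviated from their group means alike in the 3 groups (correlations 0.5 to 0.69). The first unimmunized mouse was also the lowest of its group for HDAC4, and the first OVA mouse was not. The third mouse was also the most deeply sequenced, at 30.7M reads. The points of this comparison share libraries, and the part of disease severity was not tested, since no clinical score is given by mouse.

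**Figure D3:**
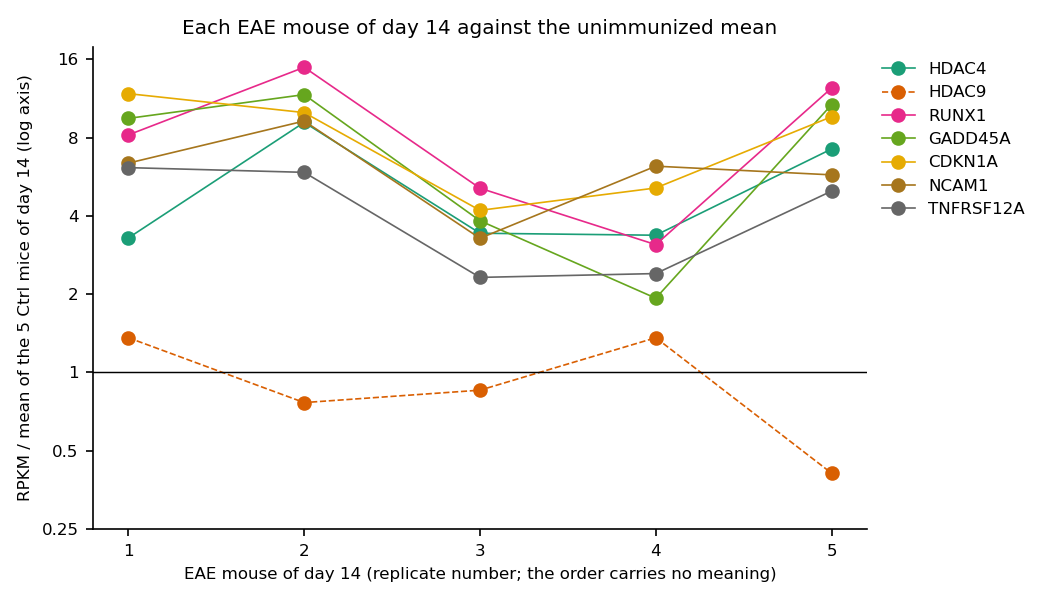
RPKM of each EAE mouse of day 14 divided by the mean of the 5 unimmunized mice of day 14 (log axis), for 7 of the genes, without DACH2. Lines only join the mice of 1 gene, and mice have no order. HDAC4, RUNX1, GADD45A, CDKN1A, NCAM1 and TNFRSF12A lie at 1.93 to 14.9 times the unimmunized mean, HDAC9 at 0.41 to 1.36 times.

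Genes around the members in the pathway were read from lists compiled with earlier results of these data known, and are given by their counts. A member is counted in each list it belongs to. Of the class IIa deacetylases, corepressors, SIK kinases and MEF2 factors, 6 of 11 tested were called higher in EAE against Ctrl on day 14 and none lower, with a median log2 fold change of 0.77 against 0.11 over all genes. HDAC4 was the only class IIa deacetylase called. HDAC5 was at 23.9 ± 5.52 RPKM (SD, n = 5) against 21.7 ± 4.30, and HDAC7 was at 4.89 ± 1.10 against 7.11 ± 1.22 RPKM, a change within 1.5-fold (-0.54 on the log2 scale, limma adjusted p = 0.00974). SIK1, a kinase that exports class IIa deacetylases from the nucleus, rose from 7.96 ± 3.93 to 42.3 ± 22.6 RPKM (log2 fold change 2.41, adjusted p = 5.19e-05). MEF2C, the transcription factor they bind, rose from 82.6 ± 6.74 to 170 ± 19.0 RPKM (log2 fold change 1.03, adjusted p = 2.36e-06), while the deacetylase HDAC3 that works with them was at 32.4 ± 2.73 and 33.1 ± 3.92 RPKM. Against OVA 4 of 11 were called higher. MEF2A was among the 6 against Ctrl but was not called against OVA, where it was at 15.2 ± 9.77 RPKM.

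Of the DACH and EYA factors and their homeobox partners, which act together on muscle promoters, 2 of 5 tested were called higher against Ctrl, SIX4 and EYA4. EYA4 rose from 3.13 ± 1.40 to 11.3 ± 3.56 RPKM (log2 fold change 1.92, limma adjusted p = 7.94e-04) and was the 1 called against OVA. DACH1, the relative of DACH2, was at 1.45 ± 0.288 and 1.59 ± 0.395 RPKM and was not tested.

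Below HDAC4 and DACH2 in the pathway, all 6 tested myogenic factors and atrophy ligases were called higher against Ctrl and 5 of 6 against OVA. MYOG, myogenin, rose from 10.1 ± 1.33 to 207 ± 122 RPKM, and its log2 fold change of 4.10 was larger than that of any member. The EAE mice had 273, 369, 112, 65.9 and 216 RPKM of MYOG, with the same 2 mice lowest as for GADD45A and RUNX1. The atrophy ligases TRIM63 (MuRF1) and FBXO32 (atrogin-1) had log2 fold changes of 1.49 ± 0.26 and 1.58 ± 0.33 (limma adjusted p = 3.24e-04 and 0.00123). FBXO32 was the only listed pathway gene called on day 40, where it was lower in EAE mice, at 49.0 ± 8.02 against 74.9 ± 11.3 RPKM (log2 fold change -0.61, adjusted p = 0.0312).

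Among the synaptic genes of the fibre, 7 of 10 tested were called higher and 1 lower against Ctrl, with the same counts against OVA. CHRNA1 and CHRNG, the alpha and the fetal gamma subunit of the acetylcholine receptor, rose by log2 fold changes of 2.93 ± 0.22 and 3.01 ± 0.36, and MUSK by 3.43 ± 0.43. The adult subunit CHRNE was at 8.61 ± 1.46 against 12.2 ± 2.22 RPKM, within 1.5-fold (-0.50 on the log2 scale, limma adjusted p = 0.00809), and COLQ, which anchors acetylcholinesterase, fell to 3.41 ± 1.85 from 6.98 ± 1.12 RPKM (log2 fold change -1.12, adjusted p = 9.22e-04). MUSK was highest in the same 2 EAE mice as HDAC4, at 19.4 and 9.16 RPKM, against 5.10 to 6.30 RPKM in the other 3.

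GADD45A and CDKN1A were set beside their families. GADD45B moved the other way, from 34.6 ± 9.77 RPKM in unimmunized to 10.6 ± 3.36 in EAE mice (log2 fold change -1.72, limma adjusted p = 1.81e-05), and was also called lower against OVA (log2 fold change -0.95, adjusted p = 0.00260). GADD45G, at 22.4 ± 2.10 RPKM in EAE mice, was not called against the 33 ± 7.76 RPKM of unimmunized mice (log2 fold change -0.53, adjusted p = 0.121) and was called lower against the 49.7 ± 31.4 RPKM of OVA mice (log2 fold change -0.97, adjusted p = 0.0115). Of the list of GADD45 proteins and p53 targets, 6 of 13 tested were called higher and 2 lower, with a median log2 fold change of 0.33. EDA2R, a receptor induced by p53, rose from 1.64 ± 0.702 to 32.0 ± 12.9 RPKM (log2 fold change 4.22, adjusted p = 7.53e-07), whereas CCNG1, BAX and PLK2 had log2 fold changes of 0.11, 0.11 and 0.03 and were not called. The message of p53 itself, TRP53, was at 13.5 ± 1.63 and 10.7 ± 0.940 RPKM (log2 fold change 0.33, within 1.5-fold). CDKN1A was the 1 of 5 tested CDK inhibitors that was called, and the other 4 had log2 fold changes from -0.56 for CDKN2D to 0.38 for CDKN1B.

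Of its relatives and partner, none was called with RUNX1. RUNX2 and RUNX3 were at 0.251 ± 0.0718 and 0.197 ± 0.0593 RPKM in EAE mice and were not tested, and CBFB, the partner that all RUNX factors need to bind DNA, had a log2 fold change of 0.24 ± 0.15 (limma adjusted p = 0.201). Of MAP3K4, the kinase that GADD45 proteins activate, and the AP-1 factors, 4 of 6 tested were called higher. JUN rose from 44.0 ± 12.5 to 133 ± 38.8 RPKM (log2 fold change 1.59, adjusted p = 2.81e-05), and MAP3K4 itself was at 10.4 ± 1.58 and 8.51 ± 1.56 RPKM and was not called.

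For TNFRSF12A, ligand and receptor moved in opposite directions. TNFSF12, which encodes TWEAK, fell from 11.6 ± 2.81 RPKM in unimmunized to 5.26 ± 1.34 in EAE mice (log2 fold change -1.13, limma adjusted p = 2.82e-04), and was 8.53 ± 1.71 RPKM in OVA mice (log2 fold change -0.70, adjusted p = 0.00982). Of the 11 genes of this axis that were tested, 4 were called higher and 1 lower. Besides the receptor these were TRAF2, NFKB2 and RELB, adaptors and subunits of the noncanonical NF-κB route, with log2 fold changes of 0.79, 0.92 and 0.69. For NCAM1, both enzymes that attach polysialic acid to it, ST8SIA2 and ST8SIA4, stayed under the threshold at 0.149 ± 0.0226 and 1.13 ± 0.229 RPKM in EAE mice, and its relative NCAM2 was at 0.00473 ± 0.00697 RPKM. M-cadherin, CDH15, rose from 8.88 ± 0.845 to 17.7 ± 3.88 RPKM (log2 fold change 0.97, adjusted p = 5.25e-05).

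The embryonic sarcomere genes did not share 1 direction. MYL4 and TNNT2 were called higher in EAE against Ctrl, ACTC1 fell from 250 ± 108 to 38.2 ± 4.83 RPKM, and the embryonic and perinatal myosins MYH3 and MYH8 had log2 fold changes of 0.32 ± 0.16 and 0.44 ± 0.36 and were not called. None of the listed pathway genes was called in OVA against Ctrl on either day, and none besides FBXO32 in EAE mice on day 40.

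**Figure D4:**
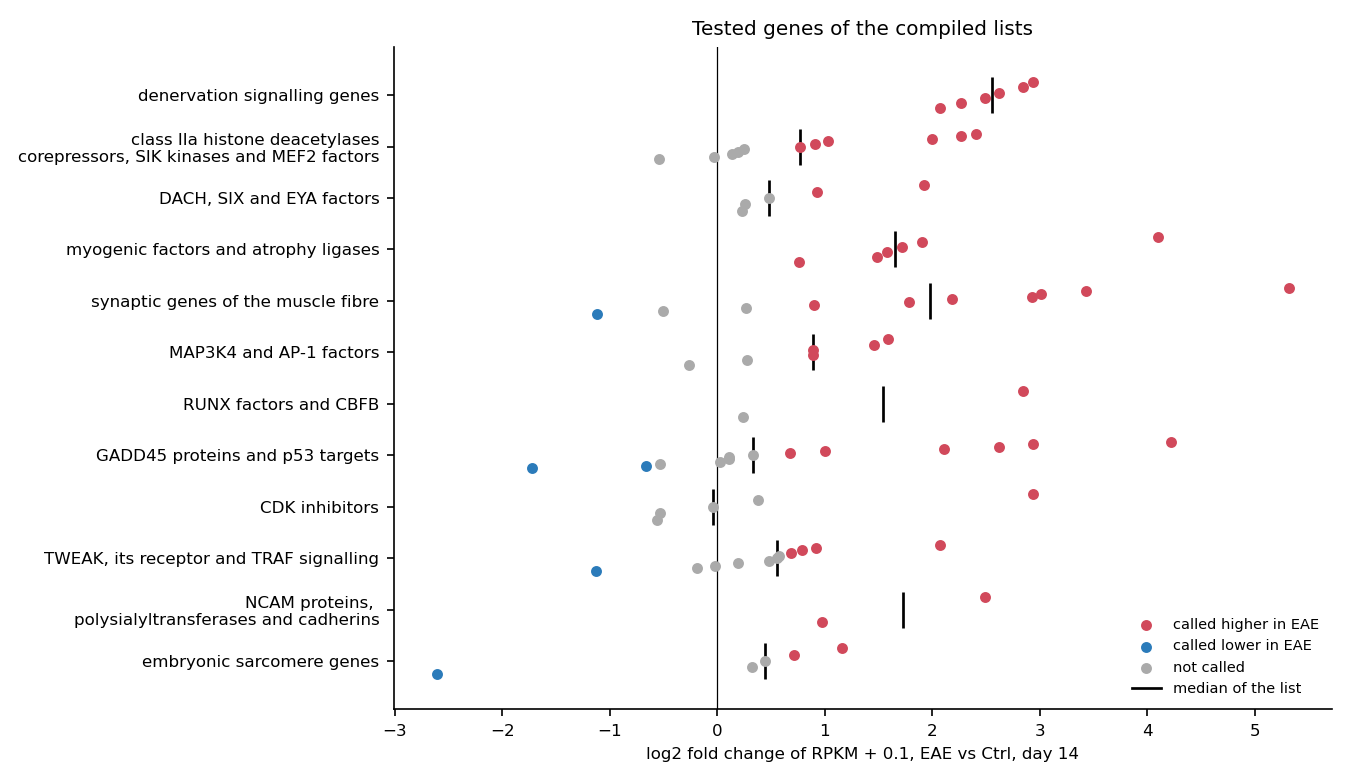
Log2 fold change of EAE against Ctrl on day 14 for every tested gene of the denervation signalling set and 11 compiled lists; colours give the call and black lines the median of a list. Medians of the compiled lists run from -0.04 for CDK inhibitors to 1.98 for synaptic genes.

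The genes whose level over the 30 mice was most like that of each member were found among all genes above 3 RPKM in a group. MUSK and TEX2 were nearest to HDAC4 (Pearson r 0.969 each), MYH14 and PVR to RUNX1 (0.960 and 0.959), and the phosphatase gene DUSP13 to GADD45A (0.962). YBX3 was nearest to CDKN1A (0.975), EIF3C and RAPGEF1 to NCAM1 (0.975 and 0.968), and the ankyrin repeat genes ANKRD1 and ANKRD2 to TNFRSF12A (0.936 and 0.934). ANKRD1 went from 86.6 to 1990 RPKM between unimmunized and EAE mice of day 14. The 30 points share libraries and groups, and the values are a description.

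Markers of other cells that make these messages were read in the same libraries. Of 7 satellite cell markers, 5 were above 1 RPKM in EAE mice of day 14, with a summed level of 93.2 to 126 RPKM against 58.7 to 69.2 in unimmunized and 58.4 to 73.8 in OVA mice. Of these, CDH15, SDC4 and ITGA7 were called higher against Ctrl, and VCAM1 was at 2.5 ± 0.554 against 3.27 ± 0.783 RPKM and not called. MYF5, not tested, was at 1.35 ± 0.296 RPKM in EAE against 0.740 ± 0.273 in unimmunized and 0.854 ± 0.210 in OVA mice, and the EAE range lay above both. PAX7 and CALCR, also not tested, were at 0.422 ± 0.130 and 0.0268 ± 0.0322 RPKM in EAE against 0.324 ± 0.132 and 0.0495 ± 0.0315 in unimmunized mice. The 11 Schwann cell markers, of cells in which NCAM1 is abundant, summed to 82.4 to 124 RPKM in EAE and 115 to 126 in unimmunized mice, and the 9 leukocyte markers, of cells that carry RUNX1, to 96.9 to 229 and 193 to 317 RPKM. Neither list was higher when NCAM1 and RUNX1 were.

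Neutrophil markers were higher in EAE than in unimmunized mice too. Of 10, 8 were above 1 RPKM in EAE mice of day 14, and the sums were 218 to 403 RPKM in EAE, 69.0 to 236 in OVA and 4.13 to 10.9 in unimmunized mice, with MPO and ELANE under 0.1 RPKM in each group. S100A8 alone was at 225 ± 101 RPKM in EAE and 46.5 ± 24.4 in OVA mice, and weighs most in the EAE sums only. It was the 1 of 5 tested markers called higher in EAE against OVA, and none was called lower. The median log2 fold change of the 5 was -0.86, and S100A9 was at 36.1 ± 16.4 RPKM in EAE and 71.9 ± 36 in OVA mice. Markers of fibroblasts summed to 352 to 556 RPKM in EAE against 946 to 1530 in unimmunized mice, those of endothelium to 130 to 176 against 151 to 211, those of fast fibres to 59500 to 78300 against 85400 to 128000, and those of slow fibres to 1080 to 1860 against 1850 to 3060 RPKM. Against Ctrl, 8 of 9 fibroblast, 3 of 10 endothelial, 2 of 11 fast fibre and 4 of 8 slow fibre markers were called lower, and none higher. The fast myosins MYH4, MYH1 and MYH2 were not called, with log2 fold changes of 0, 0.3 and 0.47. The part of these shifts in the levels of the members was not tested.

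**Figure D5:**
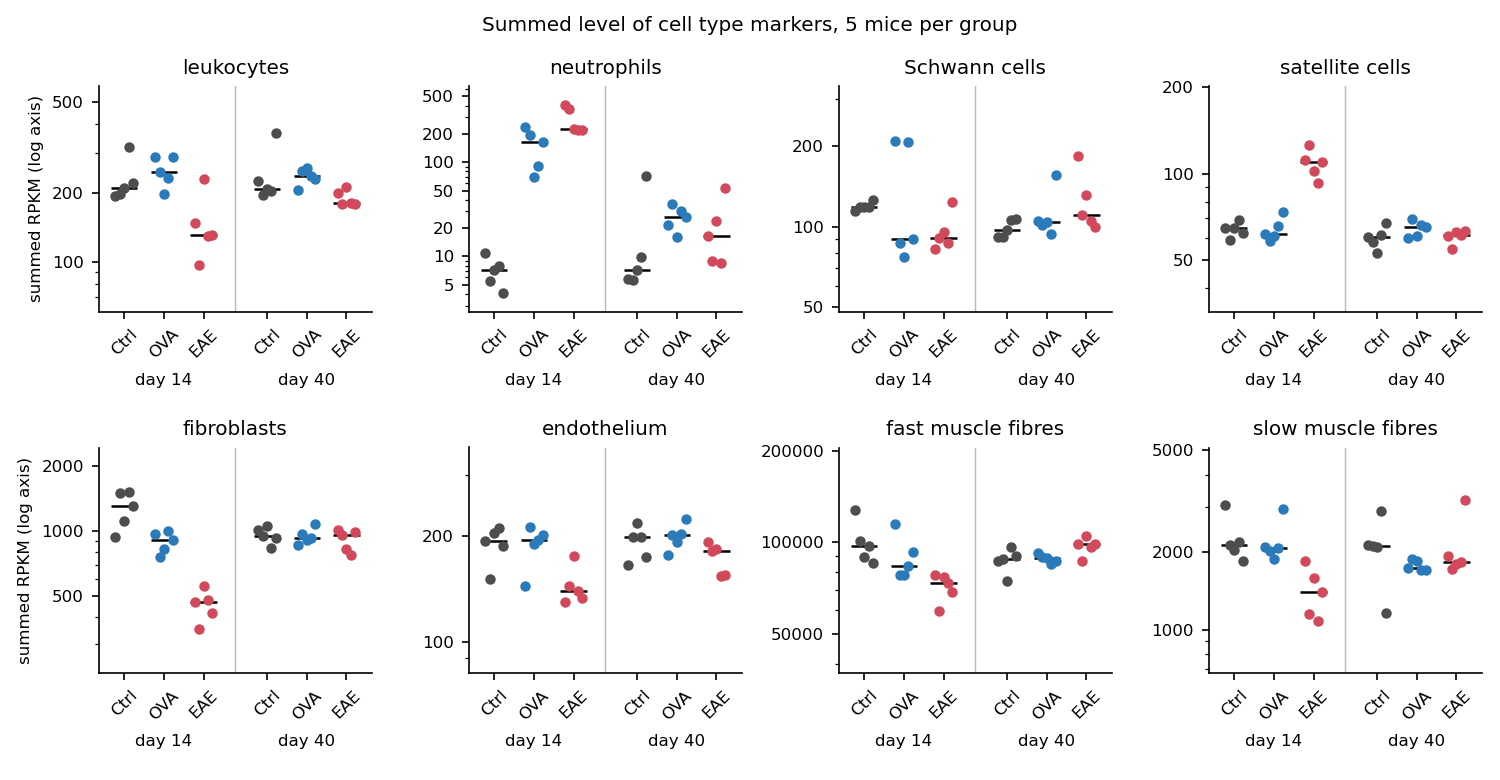
Summed RPKM (log axis) of 8 lists of cell type markers in each mouse, by group and day; points are mice and lines are group medians. On day 14 EAE mice lie above unimmunized mice in satellite cell markers (93.2 to 126 against 58.7 to 69.2) and neutrophil markers, and below them in fibroblast markers.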

How the data were processed

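EDL muscle RNA of 30 SJL mice was sequenced from poly(A) libraries made with a directional kit. The authors aligned paired-end reads to mm10 with Subread, counted them on RefSeq transcripts with featureCounts (strand setting not given in the sources used here) and computed RPKM. The deposited values were taken as log2(RPKM + 1), with 0.0001 for a gene without a read. Low values were whole multiples of 1 read in 98.6% of cases on that scale. The share was 75.8% if read as ln(RPKM + 1) and 28% if read as RPKM. The deposited values were converted back. RPKM are not counts, so limma 3.58.1 (R 4.3.3) with a mean-variance trend was fitted to log2(RPKM + 0.1), which understates changes of low genes, with the 15 mice of a day in 1 fit. Members below 3 RPKM in both groups were compared by two-sided exact permutation tests.

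The members and lists were chosen with earlier results of these data known. The text names every member, genes from the compiled lists, and for each member some of the 3 genes with the most similar profile; a few listed genes are not reported here. The fit was first tested on simulated data. Mice are taken as independent animals. Within groups the libraries differed by at least 0.23 in root mean square log2 level. The first unimmunized mouse of day 14 stood farthest from its group (0.46). The first OVA and the first EAE mouse of day 14 were also the farthest in their groups (0.37 and 0.32). Alternatives were other pseudocounts, filters, scalings, fits and leaving out each mouse. RefSeq windows and coordinates are of GRCm38.p6.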

Additional observations from a re-analysis of the deposited data

Results flagged for a closer look

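In 4 cases a single mouse stood apart from the other 4 of their group by Dixon's test, out of 48 groups of 5 examined over the 8 genes, where chance alone gives about 1 in 20. These were DACH2 in the first unimmunized mouse of day 40 (0.229 RPKM), RUNX1 in the fifth unimmunized mouse of day 40 (2.60 RPKM), CDKN1A in the second OVA mouse of day 40 (36.9 RPKM) and TNFRSF12A in the fifth OVA mouse of day 14 (76.2 RPKM). Each was the highest of its group.

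The EAE difference changed between day 14 and day 40 by limma for 6 genes. Against Ctrl the log2 change was -2.96 for HDAC4, -3.20 for RUNX1, -2.59 for GADD45A, -2.70 for CDKN1A, -2.64 for NCAM1 and -1.67 for TNFRSF12A. Against OVA it was -2.52 for HDAC4, -2.95 for RUNX1, -2.88 for GADD45A, -2.81 for CDKN1A, -2.66 for NCAM1 and -1.79 for TNFRSF12A. These tests use different mice on each day, and RUNX1 and NCAM1 entered them only through the EAE mice of day 14.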

How the results depend on the processing

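On day 14, 6 members were called in EAE against Ctrl and against OVA under all 20 alternatives, and 0 in OVA against Ctrl. With the replicate number as a block (replicate block) the counts were also 6, 6 and 0, and the block changed no call of a member on day 40. The numbers were not shown to pair mice, since deviations of mice with the same number correlated from -0.71 to 0.69. The changes between days had 6 members past the threshold under each of 24 alternatives. On day 40, leaving out single mice gave 0 to 1 members called in EAE against Ctrl: without the fourth unimmunized mouse HDAC4 was called (-0.90).

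Small differences that were never called changed sign when 1 mouse was left out. The ranges were -0.06 to 0.31 for CDKN1A and -0.26 to 0.27 for TNFRSF12A in OVA against Ctrl on day 14, -0.09 to 0.16 for GADD45A in EAE against Ctrl, -0.09 to 0.12 for CDKN1A and -0.01 to 0.38 for TNFRSF12A in EAE against OVA, and -0.22 to 0.04 for GADD45A in OVA against Ctrl on day 40. With median-of-ratios scaling CDKN1A in EAE against OVA on day 40 was 0.04. Over all genes on day 40, EAE against Ctrl called 6 higher and 34 lower, 10 and 12 with that scaling and 0 and 1 with the block. The causes were not tested.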

Other observations

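The highest DACH2 value of each group of day 40 was that of the mouse numbered 1 (0.229 RPKM in Ctrl, 0.210 in OVA and 0.174 in EAE mice), from 24 to 33 reads. Replicate numbers were not shown to pair mice across groups, and this was seen after the values were known and not tested.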
